A study of Mus musculus with 4 samples.

Results

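The Onecut and Foxa genes encode 2 families of transcription factors that were first studied as hepatocyte nuclear factors. They were examined here as all 6 mouse genes of these families (Onecut1, Onecut2, Onecut3, Foxa1, Foxa2 and Foxa3), found through the RefSeq accession that the array gives for each probe. Each gene had 1 probe with 1 spot per array, so these are 6 probes of 56605 that are not controls, or 6 of 22911 genes with a symbol. The set was chosen on these same arrays, by the signal of Onecut1 and Onecut2, which was much lower in GO2 cells than in ID8G cells. The differences of the 6 genes between the cell lines are therefore a description, without a test.

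RNA was compared between ID8G cells and GO2 cells. ID8G cells are ID8 mouse ovarian cancer cells, from a line that forms tumors in C57BL/6 J mice, and carry GFP. GO2 cells descend from ID8G cells through repeated passage in mice: GFP-positive cells were sorted from omental tumors after intraperitoneal injection (GO cells), injected again and sorted again from the omental tumors that formed. Both lines were kept in the same medium with fetal bovine serum, insulin, transferrin and sodium selenite, and both carry GFP. Cy3-labeled cRNA of each line was hybridized to 2 Agilent arrays, 1 color per array. The labels also name the ID8G samples as parental and the GO2 samples as omental tumor, while their culture medium is given as above. GO2 is a single selected line, and nothing states whether the 2 arrays of a line came from separate cultures, so that errors measure the spread between arrays, which may be technical. In RNA from a whole culture, a smaller share of cells expressing a gene and less RNA in each cell cannot be told apart.

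Onecut proteins bind DNA through a cut domain and a homeodomain. Onecut1, also called HNF6, acts in the development of liver, bile ducts and pancreas, Onecut2 overlaps with it in the liver, and both are also used by neurons and retinal cells. Foxa proteins bind through a forkhead, or winged helix, domain and can open closed chromatin as pioneer factors. Foxa1 and Foxa2 start the liver program together in the embryo, Foxa3 joins them in hepatocytes, and Foxa1 also assists the estrogen receptor in hormone-responsive epithelia. In hepatocytes the 2 families form a network with the Hnf4 factors in which the members regulate each other.

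Promoter windows from RefSeq (GRCm38.p6) were used for 4 of the 6 genes, Onecut1, Foxa1, Foxa2 (3 start sites) and Foxa3. No window was found for Onecut3. The chromosome that holds Onecut2 was left out of the search for the 6 genes, though not out of the set of all mouse windows. Each window holds 250 bases before a start site and 50 after it. The stretch before the start is shown for Onecut1 and Foxa1, which had lower levels in GO2 cells, and for the first start site of Foxa2, which did not, so that the 3 can be compared. In Foxa1 and Foxa2 the capitals mark letters that match a motif of either family. In Onecut1, which has no such match, they mark CG dinucleotides.
Onecut1 (chr9:74861671-74861920, + strand): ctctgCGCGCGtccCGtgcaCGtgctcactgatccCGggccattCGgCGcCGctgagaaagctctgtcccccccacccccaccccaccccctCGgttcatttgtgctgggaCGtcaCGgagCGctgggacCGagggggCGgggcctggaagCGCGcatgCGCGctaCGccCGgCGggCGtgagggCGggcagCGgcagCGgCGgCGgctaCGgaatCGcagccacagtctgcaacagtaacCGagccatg
Foxa1 (chr12:57546112-57546361, - strand): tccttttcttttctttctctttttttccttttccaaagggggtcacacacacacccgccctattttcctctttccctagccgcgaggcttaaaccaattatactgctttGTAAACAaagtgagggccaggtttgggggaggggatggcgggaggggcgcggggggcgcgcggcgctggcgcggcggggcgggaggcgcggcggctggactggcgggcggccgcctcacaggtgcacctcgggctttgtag
Foxa2 (chr2:148046970-148047219, - strand): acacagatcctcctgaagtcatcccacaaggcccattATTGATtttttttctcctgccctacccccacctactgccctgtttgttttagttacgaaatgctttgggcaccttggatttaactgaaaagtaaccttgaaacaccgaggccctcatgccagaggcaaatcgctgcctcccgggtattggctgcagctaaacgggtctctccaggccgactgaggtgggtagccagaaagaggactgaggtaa
The search covered both strands for ATTGAT and ATCGAT, which are core letters bound by Onecut proteins, and for TGTTTAC and TGTTTGC, which are bound by Foxa proteins. None of the matches in these windows overlapped. The Foxa2 window held ATTGAT, first base 213 bases before the start, in the strand of the gene, and 8.4% of 32851 mouse windows of this length held one or the other Onecut motif. The Foxa1 window held TGTTTAC on the opposite strand, first base 141 bases before the start, and 8.48% of all windows held one or the other Foxa motif. The Onecut1 and Foxa3 windows and the other 2 Foxa2 windows held neither kind. The Onecut1 window was rich in CG, with 38 such dinucleotides against a median of 7, more than 95.0% of all windows. Foxa1 had 26, Foxa3 22 and the Foxa2 windows 12, 23 and 13. The Foxa3 window also held TATAAA, the core of a TATA box, on the strand of the gene with its first base 36 bases before the start, as 13.6% of all windows did on either strand. The third Foxa2 window held TATAAA on the opposite strand, 208 bases before the start. These matches are letters in a window and were not tested as binding sites.

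Levels are log2 intensities from which the 75th percentile of each array was subtracted, so that 0 stands for that percentile. They were compared within a probe only, and the order of signals between probes is not an order of transcript levels. The arrays were of similar depth, with 27502 to 28841 probes well above background and no saturated spot. The Pearson correlation between arrays of a line was 0.997, and between the lines it was 0.967 to 0.968, across probes, which are not independent replicates. Of the 6 factors, Onecut2, Foxa1 and Foxa2 were well above background on all 4 arrays, Onecut1 on 2, Foxa3 on 3 and Onecut3 on 0. The 5 genes other than Onecut3 entered the fit across 28368 probes, which required 1 line or both to be well above background on each of its arrays. Calls needed a limma p below 0.05 after Benjamini-Hochberg adjustment and a difference of at least 1 on the log2 scale, that is 2-fold. In that fit 3.34% of all probes were called lower in GO2 cells and 4.5% higher. Of the calls 57.4% were higher, or 43.5% with the arrays scaled to spike-in transcripts. Onecut1, Onecut2 and Foxa1, 3 of the 6 genes, were lower by more than 2-fold with no overlap between the lines, a pattern that the choice of the genes partly fixed. The share of all probes with this pattern was not computed, and 2 arrays against 2 often do not overlap. The count is therefore a description only.

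Onecut2 (probe A_55_P2208579) had levels of 2.64 and 2.77 in ID8G cells and of -1.41 and -1.24 in GO2 cells. All 4 spots were well above background, and both GO2 arrays lay far below both ID8G arrays. As read by the scanner, the intensities were 4198 and 4546 in ID8G cells against 239 and 266 in GO2 cells, where the software's own error for the last 2 was 26.2 and 28.3. The mean was 2.70 ± 0.09 (SD, n = 2) in ID8G cells and -1.32 ± 0.12 in GO2 cells, and the difference was -4.03 (standard error, SE, 0.09), a 16.3-fold lower signal. Over the 4 pairings of a GO2 with an ID8G array it ranged from -4.18 to -3.87. The Onecut2 signal thus remained measurable in GO2 cells.

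Onecut1 (probe A_51_P368894) had levels of -0.48 and -0.51 in ID8G cells and of -4.33 and -4.50 in GO2 cells. It was well above background on both ID8G arrays and on neither GO2 array, and the lines did not overlap. The intensities were 483 and 468 in ID8G cells. In GO2 cells they were 31.6 and 27.7, with software errors of 12 and 10.5. Since its GO2 level is only bounded, the mean of ID8G cells was set against the weakest signal that passed as well above background on the GO2 arrays (46.4 and 43.6 in intensity units), by which Onecut1 was at least 9.93-fold lower in GO2 cells, or at least 3.31 on the log2 scale. Its measured means were -0.50 ± 0.02 (SD, n = 2) and -4.42 ± 0.12, and the measured difference of -3.92 shrank to -2.27 when background was corrected by the normexp method.

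Onecut3 (probe A_52_P474152), the member of the family known from the nervous system and gut, lay at -5.86 and -6.14 in ID8G cells and at -6.08 and -6.15 in GO2 cells. None of these spots was well above background and the lines overlapped, so no level or difference can be given for it.

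Foxa1 (probe A_55_P2053933) had levels of 0.08 and -0.05 in ID8G cells and of -2.16 and -2.37 in GO2 cells. Every array was well above background, and both GO2 arrays were lower than both ID8G arrays. The intensities were 714 and 645 against 142 and 122. The mean was 0.01 ± 0.09 (SD, n = 2) in ID8G cells and -2.26 ± 0.15 in GO2 cells, a difference of -2.28 (SE 0.10), or a 4.85-fold lower signal. The array pairings ranged from -2.45 to -2.11. On the log2 scale the difference of Onecut2 was 1.75 further down than that of Foxa1, and their ranges over the array pairings did not meet.

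Foxa2 (probe A_55_P2134236) was the factor whose level differed least among those above background on all arrays. Its levels were 4.02 and 4.13 in ID8G cells and 4.07 and 4.16 in GO2 cells, and the lines overlapped. Intensities were 10950 and 11675 in ID8G cells and 10668 and 11215 in GO2 cells, and the difference was 0.04 (SE 0.07), with array pairings from -0.06 to 0.14. With the arrays scaled to the spike-in transcripts, which moved the median of all tested probes from -0.02 to -0.23, the Foxa2 difference was -0.17. Foxa1 and Foxa2, which can stand in for each other in the embryonic liver, thus had unequal differences on the same arrays.

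Foxa3 (probe A_52_P64707) was weak. Its levels were -3.33 and -2.94 in ID8G cells and -2.35 and -4.30 in GO2 cells, so that one GO2 array was the highest of the 4 and the other the lowest and below background. The intensities of the GO2 arrays were 124 and 31.9, with software errors of 16.3 and 10.3. The difference of -0.19 had a SE of 0.69 and its sign rested on single arrays. It was -1.16 without GO2 replicate 1, 0.78 without GO2 replicate 2 and 0.04 with normexp correction.

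**Figure D1:**
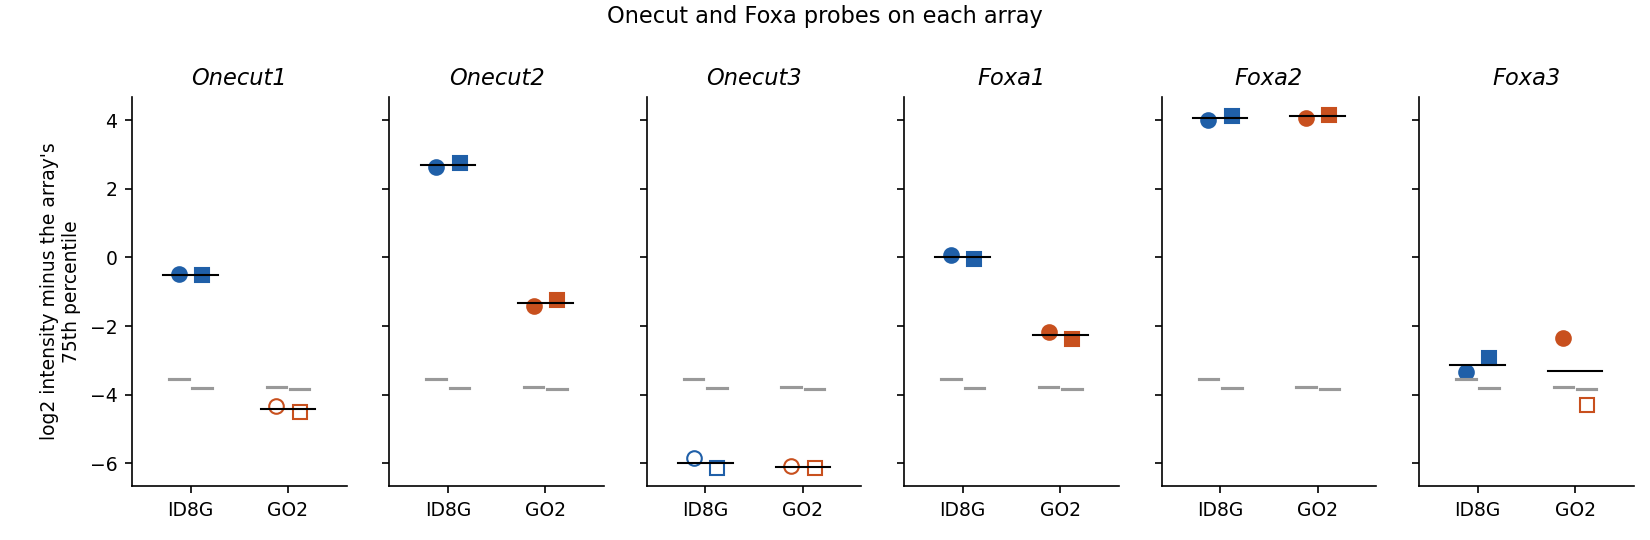
Level of each factor on each array, as log2 intensity relative to the array's 75th percentile, for ID8G cells (blue) and GO2 cells (orange); circles are replicate 1, squares replicate 2, open symbols are spots not well above background, black lines are means of the 2 arrays and short gray lines the weakest signal that passed as well above background on that array. Onecut1, Onecut2 and Foxa1 were lower in GO2 cells, Foxa2 lay at 4.02 to 4.16 on all 4 arrays, Onecut3 was below background throughout and the GO2 arrays of Foxa3 were apart.

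To place these levels, lists of related genes were compared in the same fit, with 1 probe per gene, the brightest one tested. Over all 13215 genes tested this way, 3.94% were called lower in GO2 cells and 5.98% higher, and the median difference was 0.00. The lists, written with earlier results of these arrays known, are described by their counts and medians. Where a count at an unadjusted p is given, the share of all genes at that limit was not computed. Such a count therefore shows neither an excess nor a lack. The methods' t-test with the same adjustment called no gene of any list.

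The other factors of the hepatic network were mostly not called or not measurable. Of 26 genes, 17 were tested, 2 were called lower and 1 higher, and the median difference was 0.03. The 9 untested genes were below background on all 4 arrays, and they include Hnf4a and Hnf4g, partners of Onecut1 and Foxa2 in liver, as well as Prox1, Nr5a2 and Tbx3. Sox9, a factor of bile duct and pancreatic progenitor cells, had levels of 0.48 and 0.43 in ID8G cells and -0.85 and -1.05 in GO2 cells, a difference of -1.41 (SE 0.09, adjusted p = 0.00135 by limma). A second Sox9 probe differed by -0.38 only and was not called. Ppargc1a, a coactivator that drives mitochondrial and fasting genes, was lower by its brightest probe, with a difference of -1.23 (SE 0.06, adjusted p = 0.000685 by limma), and by its other probe, at -1.40. Hhex, a homeobox factor of early liver and thyroid, was higher, at -0.09 and -0.05 in ID8G cells and 0.93 and 1.08 in GO2 cells, a difference of 1.07 (SE 0.07, adjusted p = 0.00178 by limma). Its call was lost with normexp correction (0.87), with spike-in scaling (0.86) and without GO2 replicate 2. The brightest genes of this list, Cebpb, Esrra and Rxra, differed by 0.03, -0.44 and 0.52, and none was called. The other Rxra probe lay in the opposite direction, at -0.42. Gata4 and Gata6, which act beside Foxa factors in endoderm and are also ovarian factors, differed by -0.14 and 0.30 and were not called.

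Most products of hepatocytes were below background in both lines. Of 32 such genes on the array, 6 were tested, and 24 were well above background on no array, among them Alb, Ttr, Apoa1, Apob and Tdo2. Afp, the fetal serum protein, was the single gene called, and it was higher: -1.22 and -1.16 in ID8G cells and 1.54 and 1.51 in GO2 cells, a difference of 2.71 (SE 0.06, adjusted p = 0.000205 by limma). Apoa2 and Ahsg, the brightest besides Afp, differed by -0.17 and 0.75 and were not called, and the median of the 6 was 0.17. The 6 include Cdh1, which is also in the list of epithelial markers and differed by -0.34 without a call.

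Among 24 biliary and pancreatic genes, 10 were tested, 3 were called lower and 0 higher, and the median difference was -0.50. Cftr, the chloride channel of duct epithelia, had levels of 0.04 and 0.03 in ID8G cells and -2.21 and -2.35 in GO2 cells, a difference of -2.32 (SE 0.07, adjusted p = 0.000314 by limma). Krt19, a keratin of ducts and also of the ovarian surface and mesothelium, was lower by 1.65 on the log2 scale, with levels of 7.40 and 7.37 against 5.72 and 5.75 (SE 0.05, adjusted p = 0.00034 by limma). Bcl2l14, a member of the Bcl2 family, was put in this list with its lower level already known, and without it 2 of 9 genes were called lower. The median of -0.50 includes Bcl2l14 and is thus partly fixed by that choice. Bcl2l14 lay at 1.74 on both ID8G arrays and at -3.57 and -3.62 in GO2 cells, a difference of -5.34 (SE 0.05). Spp1, a secreted phosphoprotein and the brightest of the list, differed by -0.83 and Slc4a2, an anion exchanger, by -0.05, and neither was called, though Spp1 was with spike-in scaling (-1.03). The pancreatic factors Pdx1, Ptf1a, Nkx6-1 and Pax6 were below background on all 4 arrays. Isl1 was tested and its brightest probe, at 0.31, was not called, whereas its other probe, at -1.21, was.

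The remaining genes of the same DNA-binding classes were called in both directions or not at all. Of the other cut-homeobox genes Cux1, Cux2 and Satb1, 1 was tested and 0 were called (at an unadjusted p below 0.05 in limma, 1 was lower and 0 higher). This was Cux1, which differed by -0.33, and its other 4 tested probes lay between -0.58 and -0.19. Cux2 and Satb1 were below background on all arrays. Of 41 other forkhead genes, 25 were tested, 2 were called lower and 4 higher, and the median difference was -0.03. With signal required on all 4 arrays, 0 were called lower and 3 higher, since Foxb2, Foxd1 and Foxf1 were above background in 1 line only. Foxb2 and Foxd1 were the lower ones. Foxb2 lay at -1.54 and -1.57 in ID8G cells and below background in GO2 cells, and was at least 2.26 lower on the log2 scale (limma adjusted p = 0.000195), whereas for Foxd1 the bound was 0.84 (limma adjusted p = 0.000788) and its call was lost with normexp correction, at -0.74. Foxf1, a factor of visceral mesenchyme, was below background in ID8G cells and at -2.97 and -3.58 in GO2 cells, at least 0.40 higher (limma adjusted p = 0.00354). The other 3 called higher were Foxc1 (1.67), Foxd2 (1.48) and Foxp1 (1.22), above background on all arrays. A second Foxp1 probe differed by 0.26 and was not called, and Foxd2 was not called with normexp correction. Foxl2, the forkhead factor that marks ovarian granulosa and stromal cells, was the brightest of the list and lay at 4.85 and 4.79 in ID8G cells and 4.74 and 4.77 in GO2 cells, a difference of -0.07 (limma adjusted p = 0.374).

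Several partners of Foxa factors in hormone-responsive epithelia were called higher in GO2 cells. Of 17 genes, 7 were tested, 3 were called higher and 0 lower, and the median difference was 0.79. Gata3, a luminal epithelial factor, rose from 0.81 and 0.90 to 2.23 and 2.21, by 1.36 (SE 0.06, adjusted p = 0.000608 by limma). Gata2 rose by 1.07 and the corepressor Tle3 by 1.03. Both calls were lost with spike-in scaling and without ID8G replicate 2, which left 1 of the 3. That of Gata2 was also lost with normexp correction and that of Tle3 without GO2 replicate 2. A second Tle3 probe, at 0.60, was not called. Esr1, the estrogen receptor gene, differed by 0.79, with levels of -2.25 and -2.21 in ID8G cells and -1.47 and -1.41 in GO2 cells, and stayed under the 2-fold limit (limma adjusted p = 0.00186), and its other probes lay between -0.21 and 0.69. Xbp1, the brightest, differed by -0.10 and Arid5b by 0.37, and neither was called. Grhl2, Elf3, Ehf, Tfap2a and Tfap2c were below background on all arrays.

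Neuronal and neuroendocrine genes, examined because Onecut factors act in neurons, held 9 tested of 20, with 3 called higher and 0 lower and a median difference of 0.13. Lhx1, a homeobox factor of kidney and horizontal cells of the retina, was below background in ID8G cells and at -2.32 and -1.67 in GO2 cells, at least 1.68 higher (limma adjusted p = 0.00812). Eno2, the neuronal enolase, rose by 1.41 (SE 0.08, adjusted p = 0.00128 by limma) and Tubb3, the neuronal tubulin, by 1.16 (SE 0.05, adjusted p = 0.000622 by limma). With normexp correction only Tubb3 was still called, and with spike-in scaling Tubb3 was not, at 0.95. Rest, the repressor of neuronal genes, Ncam1 and Pou4f1 were the brightest and differed by 0.13, 0.15 and -0.21, without a call. Chga, Chgb, Insm1 and Peg10 were below background on all 4 arrays.

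**Figure D2:**
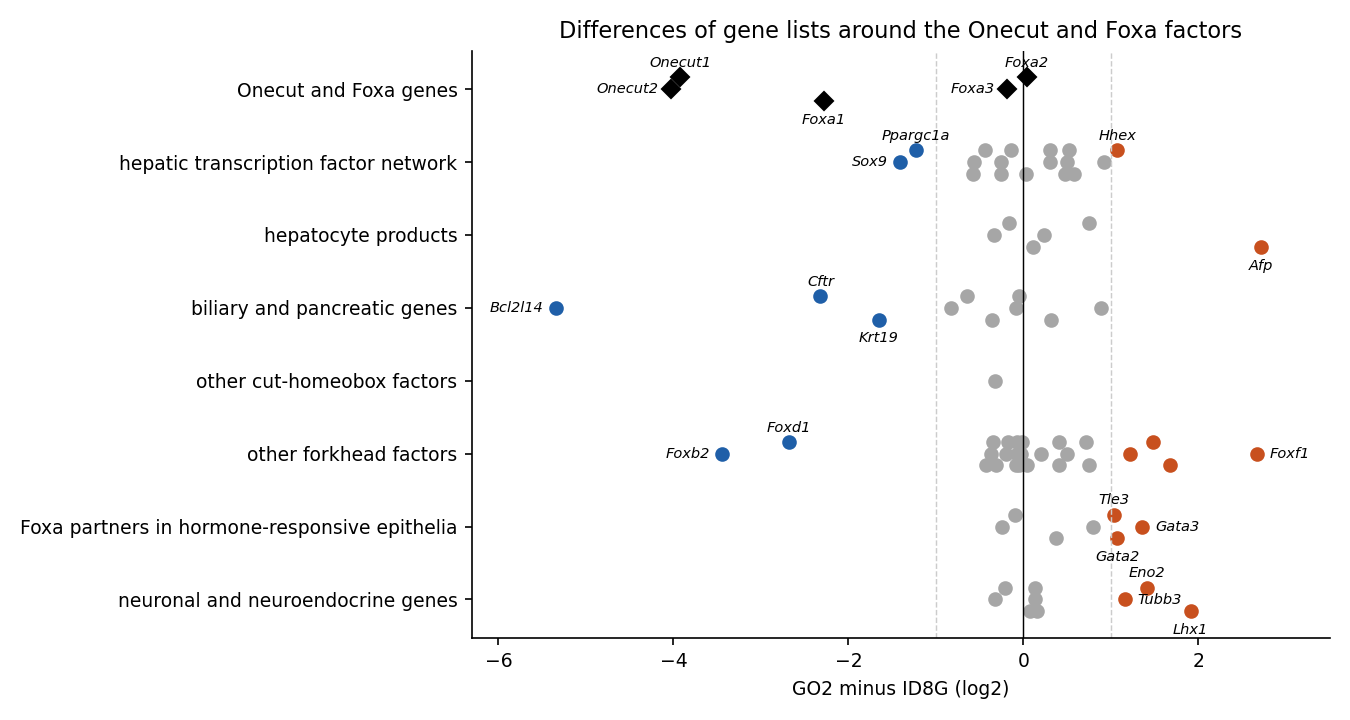
Difference between GO2 and ID8G cells on the log2 scale for the 5 tested Onecut and Foxa genes (black diamonds, a description without a test) and for the tested genes of 7 related lists (circles; blue, called lower in GO2 cells; orange, called higher; gray, not called), at the value of the brightest probe. Dashed lines mark a 2-fold difference, and the members of the hepatic network lie mostly between them while Onecut2 and Foxa1 lie at -4.03 and -2.28. Onecut1, Foxb2, Foxd1, Foxf1 and Lhx1 are drawn at their measured differences although 1 line was below background.

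The lines were also checked against markers of the cell types they could hold. Keratins 8 and 18 (Krt8 and Krt18), Wt1 and Msln, which mark the ovarian surface and mesothelium, were well above background on all 4 arrays, whereas the epithelial genes Krt7, Epcam, Cldn4, Ocln and Muc1 were so on none. Of 7 epithelial markers tested, 2 were called lower in GO2 cells, Krt19 and the claudin Cldn3, the latter from -0.99 and -0.79 to -3.23 and -3.29 (difference -2.37, SE 0.09, adjusted p = 0.00045 by limma). Krt8 and Krt18 differed by -0.55 and -0.81 and were not called, though Krt18 was with spike-in scaling (-1.02), as was the mesothelial marker Msln (-1.03). Of the 9 mesothelial markers tested, Krt19 was called lower and Upk3b higher (1.08, limma adjusted p = 0.000787), and the latter was not called with spike-in scaling, while Wt1 and Pdpn differed by -0.10 and 0.09 without a call. Fibroblast markers moved with the cell line: 5 of 6 tested were called higher in GO2 cells (Col1a1, Col1a2, Col3a1, Pdgfra and Pdgfrb), and the summed scaled intensity of the list was 73.8 and 71.1 in ID8G cells against 211 and 217 in GO2 cells. Col1a1, a chain of type I collagen, went from 1.30 and 1.33 to 5.98 and 6.04 (difference 4.69). Dcn, the brightest of them, differed by -0.63, and Lum, Thy1, Fap, Dpt, Pi16 and Postn were below background on all arrays. The part of these transcripts in the differences of the Onecut and Foxa genes was not tested. For macrophages, 0 of 5 tested markers were called (limma, 2 lower and 0 higher at an unadjusted p below 0.05). Itgam, Csf1r, Cd14 and Cd68 were well above background on all 4 arrays, with differences of -0.13, 0.22, -0.69 and 0.19, whereas Ptprc, Adgre1, Fcgr1, Mrc1, Lyz2, C1qa and Cx3cr1 were below it on all, and the summed intensity was 24.6 and 27.3 in ID8G cells and 23.5 and 23.7 in GO2 cells. For endothelial cells 0 of 2 tested markers were called (limma, 0 at an unadjusted p below 0.05). These were Pecam1 and Eng, well above background on all 4 arrays, with differences of 0.08 and 0.13. The other 8 endothelial markers, among them Cdh5, Kdr and Tek, were so on none. For lymphocytes 0 of 3 tested markers were called (limma, 1 higher at an unadjusted p below 0.05). Cd3e, Cd4 and Lck were well above background on all 4 arrays, with differences of 0.18, -0.07 and 0.32, and the other 7 lymphocyte markers were so on none. Of 3 adipocyte markers tested, Fabp4, a fatty acid carrier, was called lower, at least 2.65 on the log2 scale (limma adjusted p = 0.000851), and it was not tested when signal was required on all 4 arrays. Pparg and Lep were well above background on all 4 arrays, with differences of -0.42 and -0.04, and Adipoq, Plin1 and Lipe were below it on all.

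The genes beside the factors were examined in the same fit. For each factor, the 5 nearest tested genes on each side in the RefSeq gene order were taken, 60 in all. Of these, 0 were called lower and 3 higher, against 3.94% and 5.98% of all genes, and the methods' t-test called 0 either way. Without the 2-fold limit, limma gave 8 lower and 10 higher at an adjusted p below 0.05. At an unadjusted p below 0.05 it gave 12 lower and 12 higher. The shares of all genes at these limits without the 2-fold rule were not computed. The 10 genes around Onecut1 differed by -0.72 to 0.06, with a median of -0.15. Its nearest tested neighbors were Gm16551, at -0.72 and with GO2 arrays apart (-4.64 and -3.05), and Fam214a, at -0.17. Unc13c, the next tested gene beyond Gm16551, differed by -0.58 (limma adjusted p = 0.0122) and Gnb5 by -0.32 (limma adjusted p = 0.0358). Both stayed under the 2-fold limit. Without GO2 replicate 2, Gm16551 was called lower, at -1.51. The genes around Onecut2 had a median of -0.02. Wdr7 and Fech, its nearest tested neighbors, differed by 0.16 and -0.09, and the 2 called there were higher: the zinc finger gene Zfp532 at 1.42 (limma adjusted p = 0.000745), which was not called with normexp correction (0.81), and Piezo2, a mechanosensitive channel that was below background in ID8G cells, at least 0.70 higher (limma adjusted p = 0.000788). The neighbors of Foxa1 had a median of -0.13 and a range of -0.32 to 0.22, with Mipol1 at -0.29 and Sec23a at -0.13 on either side. Around Foxa2, Thbd, which encodes thrombomodulin, was called higher, with levels of -0.10 and -0.01 in ID8G cells and of 1.44 on both GO2 arrays (limma adjusted p = 0.000485), and the nearest tested gene, the noncoding 9030622O22Rik, was below background in ID8G cells, at least 0.25 higher in GO2 cells, and not called (limma adjusted p = 0.0946). Without ID8G replicate 1, Cd93 beside Foxa2 and Dmpk beside Foxa3 were also called higher, and Cd93 was below background on both ID8G arrays. Neighbors of Onecut3 differed by -0.17 to 0.37 and those of Foxa3 by -0.37 to 0.97.

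**Figure D3:**
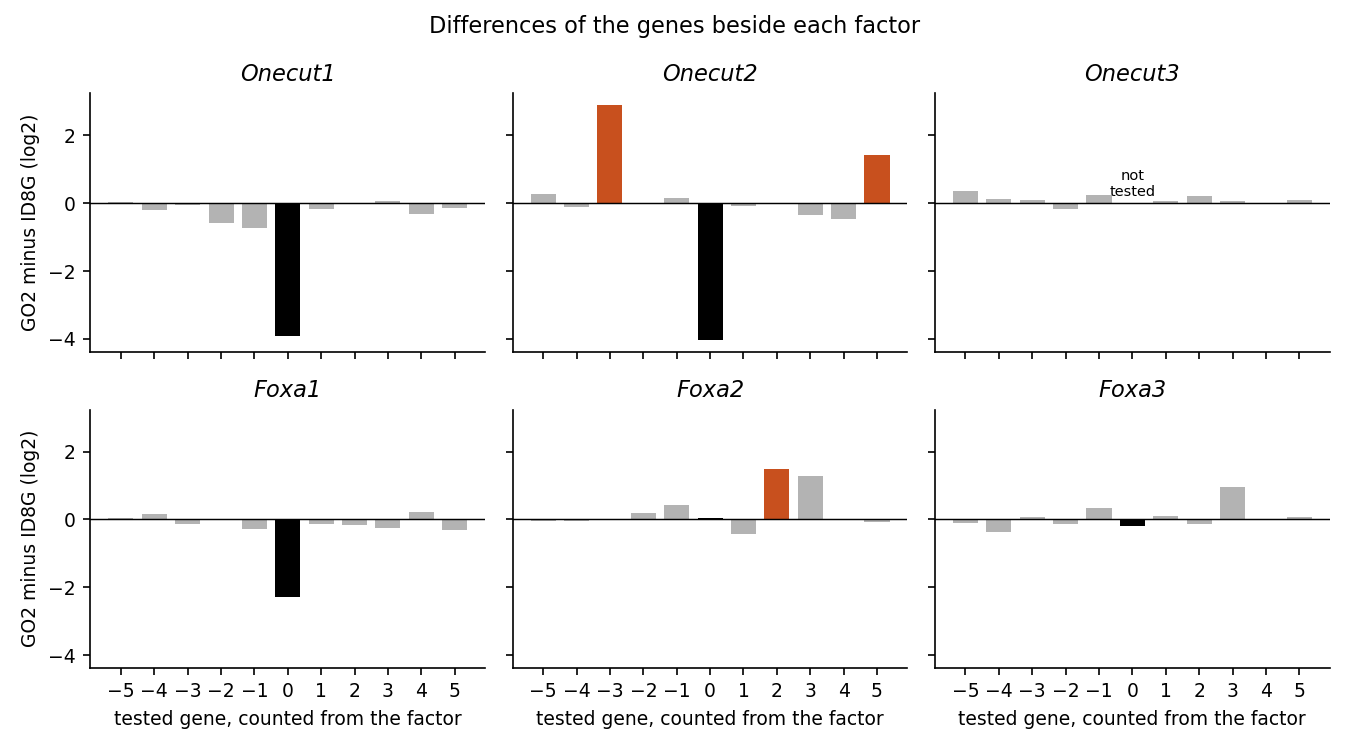
Difference between GO2 and ID8G cells on the log2 scale for each factor (black bar at 0, shown without a test) and for the 5 nearest tested genes on either side of it in the RefSeq gene order (gray, not called; orange, called higher in GO2 cells), counted outward from the factor. The bars of Onecut2 and Foxa1 stand at -4.03 and -2.28, and that of Onecut1 is drawn at its measured -3.92, although its GO2 signal was below background and only a difference of at least 3.31 is given by the bound. The highest bar, of Piezo2 beside Onecut2, is likewise bounded, at 0.70.

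The probes with the pattern most like Onecut2 were sought among the 17942 probes with a gene symbol and signal well above background on every array, by the Euclidean distance between values centered on each probe's mean over the 4 arrays. No order is given for Onecut1, whose GO2 values were below background. With 2 arrays per line, this measure mostly follows the size of the difference, which is also what chose Onecut2. The nearest were Ripply1 (distance 0.28), Prelp (0.28), Tnnt2 (0.30), Krt23 (0.34) and Enpp2 (0.38). Ripply1 encodes a repressor of somite formation, Prelp a matrix proteoglycan, Tnnt2 the cardiac troponin T, Krt23 a keratin and Enpp2 the enzyme autotaxin. Their differences ranged from -3.92 to -3.69. Ripply1 lay at 2.41 and 2.34 in ID8G cells and at -1.47 and -1.36 in GO2 cells.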

How the data were processed

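RNA of ID8G and GO2 cells was measured on 4 SurePrint G3 Mouse arrays, 2 per cell line. The authors deposited linear spot intensities that Feature Extraction 11.5.1.1 had corrected for background, without normalization between arrays. Outlier, saturated and well above background spots were marked. The deposited table of log2 values equals, within 0.01 for 99.9% of values, log2 intensities relative to the 75th percentile of an array after the median of every probe was set to 0, with column medians of 0.104, -0.0478, 0.038 and -0.0486. It served for 1 alternative.

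Spots marked as outliers were left out, spots of a probe were averaged on the log2 scale and the 75th percentile was subtracted. Probes that were well above background on both ID8G arrays or both GO2 arrays entered a limma fit (version 3.58.1, R 4.3.3) with 1 term, the cell line, and Benjamini-Hochberg adjustment over all 28368 probes. With 2 arrays against 2, an exact two-sided permutation test of 1 probe cannot give a p below 0.333, so that adjusted p values rest on the spread pooled across probes. The number of arrays limits the precision. Where a line was below background on both arrays, differences are given as bounds, with its arrays set to their weakest signal that passed as well above background, unless the probe's own was higher.

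Symbols came from RefSeq accessions (GRCm38.p6), which matched 32994 of 56605 probes (58.3%). The arrays were designed on mm9, so that this table served for names and gene order. Named genes were the 6 factors, at most the 3 brightest genes of a list and the 3 called genes with the largest difference, called neighbors and the 5 nearest patterns; others were named after their values were seen. The members and lists were chosen with earlier results of these data known. A few genes were left out of the lists for a reason unrelated to their values and are not reported here, so that counts and medians are those of the remaining genes. Alternatives were normexp (offset 50, on median signals, since the files lack mean signals), quantile normalization, median centering, spike-in scaling (7 transcripts), other filters, outlier spots kept, the deposited table, the replicate number as a block, the t-test of the methods and each array left out. The fit was tested on simulated data. Figures were drawn with matplotlib 3.10.9.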

Additional observations from a re-analysis of the deposited data

How the results depend on the processing

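The 3 lower factors kept their direction under every alternative that measured them. Since the set was chosen on these arrays and the lines did not overlap, leaving out 1 array could not reverse it. The kept direction is therefore a description and no further support. Onecut1 and Foxa3 were not tested when signal was required on all 4 arrays. The difference of Onecut1 was -2.27 with normexp and -4.12 with spike-in scaling, that of Onecut2 -3.61 and -4.23, and that of Foxa1 -1.73 and -2.49, while Foxa2 was at -0.17 with spike-in scaling. Without 1 array in turn, Onecut1 ranged from -4.00 to -3.83, Onecut2 from -4.11 to -3.94, Foxa1 from -2.38 to -2.17, Foxa2 from -0.01 to 0.10 and Foxa3 from -1.16 to 0.78. Over all probes, 947 were lower and 1277 higher. The methods' t-test gave 3 and 0, normexp 517 and 818, signal on all 4 arrays 606 and 666, and spike-in scaling 1434 lower. That scaling turned the share called higher from 57.4% to 43.5%. Without 1 array, 913 to 1408 were lower and 1288 to 1628 higher. Among the neighboring genes, 3 were called higher, against 0 with the t-test, 1 with signal on all 4 arrays and 3 to 5 without 1 array, and 0 were called lower, against 0 to 1 without 1 array. A replicate block gave 936 lower and 1251 higher probes and changed no call of a factor's neighbors or difference of a factor, and the numbers gave no pairing, since the correlation between differences of same-numbered arrays was 0.0273. The 13 list counts above 0 stayed within 1.5 times in 158 of 182 comparisons, and all 13 were 0 with the t-test. The causes were not tested, apart from fewer probes tested where signal was required on all arrays. The slide as a block was not run, since all arrays share 1 slide. Signal over background is one limit, since the GO2 level of Onecut1 and any level of Onecut3 are not known, and the number of arrays is another.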
